A study of Mus musculus with 6 samples.

Results

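The 42 genes described here encode the enzymes and regulators that keep cellular thiols reduced, remove peroxides, hold iron and detoxify methylglyoxal. They were chosen by name, as the probe sets of the array whose annotation gives exactly 1 gene symbol and whose symbol is that of the gene. All 42 were found, with 411 of the 269751 probe sets, among 23152 genes on the array. RNA of regulatory T cells (Tregs, sorted as CD4+CD25high), a T cell class that holds other immune cells in check, was hybridised to Affymetrix Mouse Gene 2.0 ST arrays. The spleens came from untreated male mice of 45 weeks, housed free of specific pathogens. KO mice carried DJ-1-/-, the loss of the Park7 gene that encodes DJ-1, and WT mice were DJ-1+/+ littermates, with 3 mice and 1 array each. How the deletion was made is not given in the sources used here, and the DJ-1-/- label is of the mouse, so the loss may reach cells other than Tregs.

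DJ-1 is a small protein with an oxidation-sensitive cysteine, and it has been linked to the stability of Nrf2, the transcription factor of the oxidative stress response. Nrf2, encoded by Nfe2l2, is held down by Keap1 and, when electrophiles or oxidants modify Keap1, pairs with small Maf proteins at antioxidant response elements of genes for glutathione synthesis, thioredoxin recycling and haem breakdown. Glutathione and thioredoxin form parallel chains of electron transfer from NADPH to disulfides and peroxides. In T cells both chains are known to support growth after activation, and a glyoxalase activity has been reported for DJ-1 and disputed.

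No gene of the set passed the test across all genes, and the groups stood apart in some genes of both thiol chains. Glrx (glutaredoxin), Srxn1 (sulfiredoxin), Gpx4 (the lipid peroxide reductase), Txn1 (cytosolic thioredoxin) and the peroxiredoxins Prdx2 and Prdx5 had lower values in every KO array than in every WT array, by -0.30 to -0.76 log2 units. Msra, which repairs oxidised methionine, and Txnip, the thioredoxin-binding inhibitor, had higher values in every KO array, by 0.62 and 0.32. The sizes for Srxn1, Txn1, Prdx5 and Msra depended on the probe sets taken. The regulators Nfe2l2, Keap1 and Bach1, the glutathione synthesis genes Gclc and Gclm and the glyoxalase Glo1 differed by at most 0.19 in size. Of these Keap1 (-0.19) was lower in every KO array. Others of the same roles differed more, with overlapping arrays: the regulator Mafg (-0.22), the synthesis gene Gss (-0.20) and the glyoxalase Hagh (0.31).

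Values are log2(intensity + 16) units throughout, and a gene's value is the median of its probe sets, so differences of dim genes are understated. Genes whose mean lay under the 40th percentile (5.90) were not tested. Of the 42 genes 39 were tested. Nqo1, Slc7a11 and Mgst3 lay under that level. Levels of different genes are not set against each other, since probe sets differ in brightness for the same amount of RNA.

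Over all 13891 tested genes 38 passed a limma adjusted p of 0.05, which is 0.274%, and none of the 39 was among them (lowest adjusted p 0.209, Glrx). At an unadjusted p of 0.05, 5 of the 39 were lower and 2 higher in KO, or 12.8% and 5.13%, against 7.67% and 2.99% of all tested genes. The unmoderated test passed 0 of all tested genes after adjustment, Park7 included, so its 0 of the 39 says nothing about the set. In limma with array weights 1 of the 39 passed (Glrx, adjusted p = 0.0350), and 125 of all tested genes did. In 10 of the 39 genes every KO array lay below every WT array (25.6%, against 11.3% of all tested genes), and in 2 every KO array lay above (5.13%, against 6.10%). With 3 arrays a group, an exact permutation p has a minimum of 0.10. The median difference of the 39 was -0.06 with 23 negative (59.0%), and that of all tested genes was -0.05 with 59.7% negative.

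**Figure D1:**
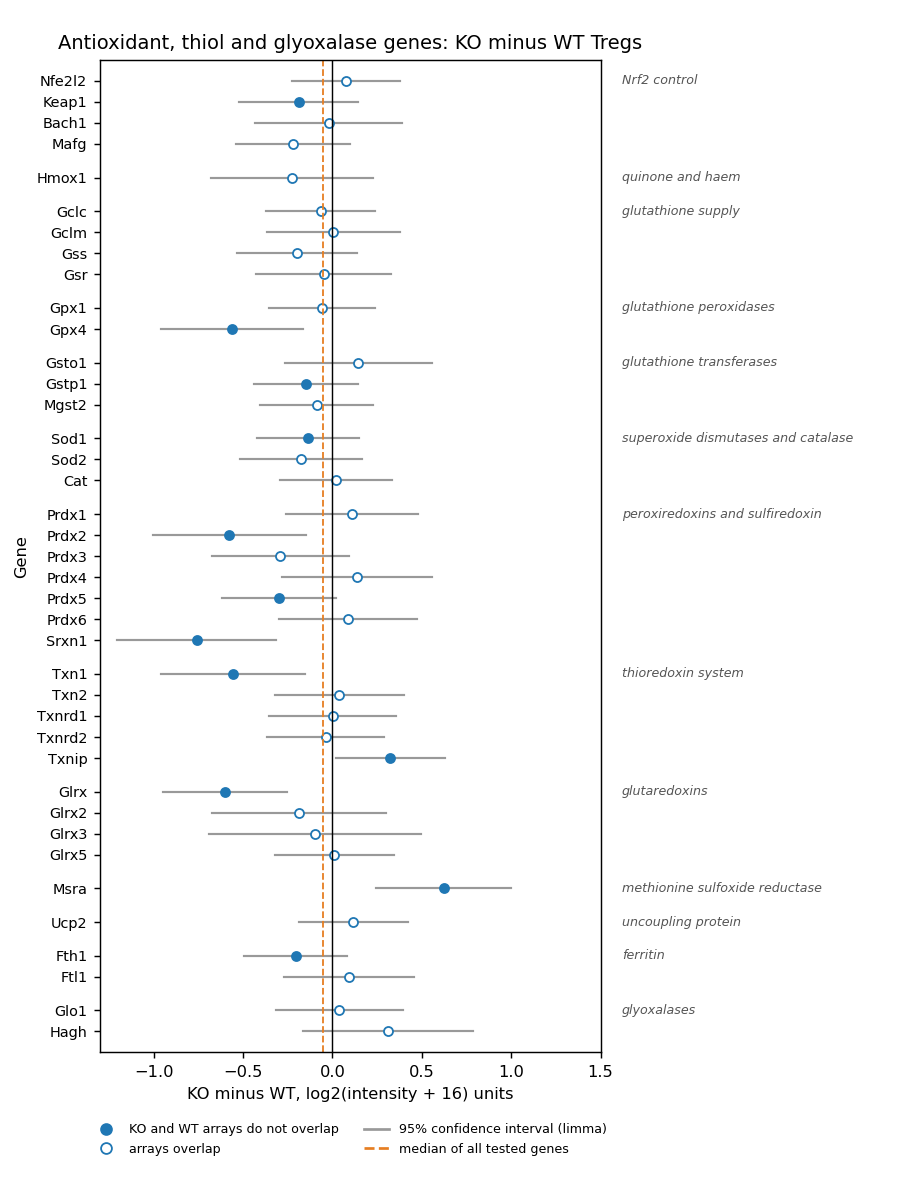
KO minus WT differences of the 39 tested genes in log2(intensity + 16) units on the horizontal axis, grouped by role, with limma 95% confidence intervals. Filled points are the 12 genes whose KO and WT arrays do not overlap, and the dashed line is the median of all 13891 tested genes (-0.05). Srxn1 (-0.76) lies lowest and Msra (0.62) highest.

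Several facts of the arrays touch these counts. KO replicate 1 had the lowest median intensity (88.6, against 95.3 to 100.2 in the other 5 arrays) and the lowest mean correlation with the others over genes (0.958, against 0.974 to 0.976). It held the lowest value of the 6 arrays in 17 of the 39 genes (43.6%) and in 38.2% of all tested genes. When each array was centred on its median, the median difference of all tested genes moved to 0.05, a shift of about 0.10, so differences relative to the median of all genes are given below for the leading genes. With that centring 6 of the 39 lay wholly lower and 4 wholly higher (15.4% and 10.3%, against 6.86% and 11.4% of all tested genes). With quantile normalization the counts were 8 and 4 (20.5% and 10.3%, against 8.49% and 9.61%). Without KO replicate 1 they were 14 and 4 (35.9% and 10.3%, against 15.3% and 13.7%). When each array was left out in turn, the sign turned at least once in 14 of the 39 genes (35.9%, against 41.3% of all tested genes). A gene without overlap cannot turn sign in this way, so the count bears on genes with overlapping arrays alone. Glrx, Srxn1, Gpx4, Txn1, Prdx2 and Prdx5 lay wholly lower, and Msra and Txnip wholly higher, with all arrays, with centring and with quantile normalization. Leaving out KO replicate 1 cannot make such groups overlap. Park7, the targeted gene, was at 6.06, 5.96 and 5.71 in KO replicates 1 to 3, against 9.48, 9.27 and 9.70 in WT replicates 1 to 3 (-3.57, SE 0.16, limma adjusted p = 2.06e-05). All 7 Treg markers lay above the filter and 0 passed the threshold. In KO 6 of them were lower, as were 59.7% of all tested genes, and of the 6 Il2ra (-0.0013) and Ctla4 (-0.0050) hardly differed. Foxp3, the lineage factor, was the 1 higher, without overlap, at 12.72 ± 0.03 log2 units in KO and 12.66 ± 0.02 in WT (SD, n = 3 each). The transcription factor Ikzf2 (-0.20) and the T cell receptor subunit Cd3e (-0.19) were lower without overlap. The summed intensity of the 7 ranged from 29941 to 31264 in KO arrays and from 31946 to 32282 in WT arrays, and its part in the lower values of the set was not tested. Fewer cells of a type and less RNA per cell cannot be told apart in such bulk samples.

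**Figure D2:**
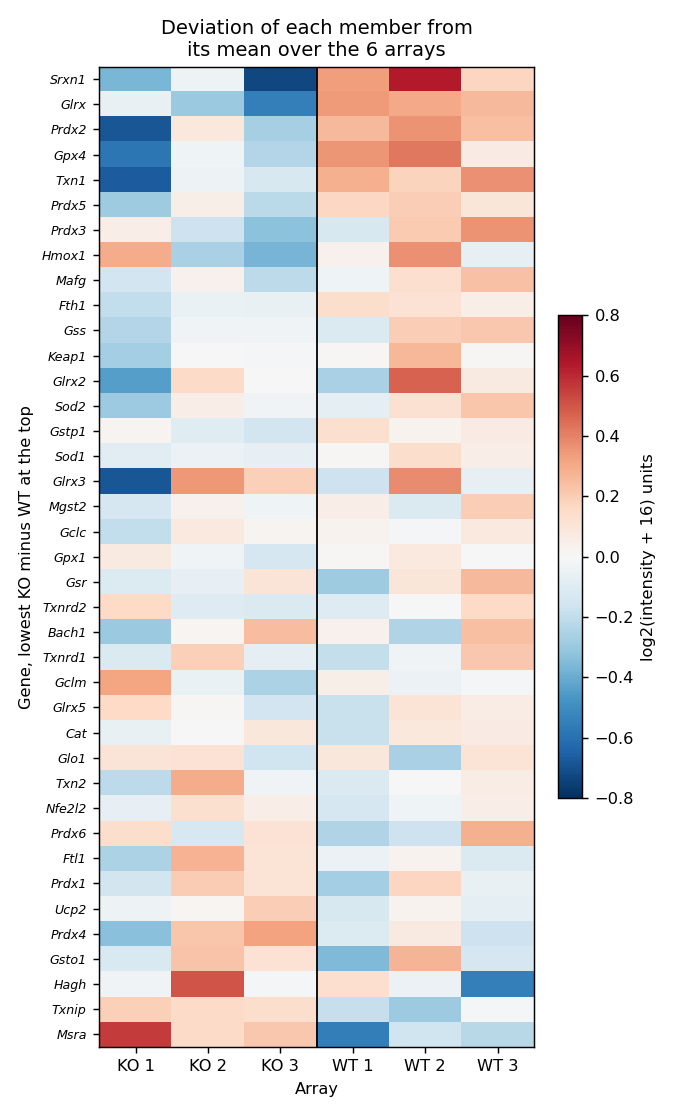
Deviation of each of the 39 tested genes from its own mean over the 6 arrays, in log2(intensity + 16) units by colour, with the KO arrays on the left and the WT arrays on the right. Genes run from the lowest KO minus WT difference (Srxn1, -0.76) at the top to the highest (Msra, 0.62) at the bottom. The KO replicate 1 column holds the lowest value of 17 genes.

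The controllers of the Nrf2 response came first. Nfe2l2, which encodes Nrf2, was at 9.21, 9.41 and 9.33 in KO replicates 1 to 3, against 9.14, 9.24 and 9.33 in WT replicates 1 to 3. The groups overlapped and the difference was 0.08 (95% confidence interval -0.23 to 0.38). With median centring or quantile normalization each KO array of Nfe2l2 lay above each WT array. Keap1, the adaptor that sends Nrf2 to degradation, was at 7.40, 7.68 and 7.66 in KO replicates 1 to 3, against 7.68, 7.94 and 7.68 in WT replicates 1 to 3. The groups only just failed to overlap, since KO replicate 2 nearly coincided with WT replicates 1 and 3. Its difference was -0.19, limma adjusted p = 0.690, and it was -0.05 when only bright probe sets were used and -0.10 without KO replicate 1. Bach1, the haem-sensing repressor that competes with Nrf2, was at 8.26, 8.57 and 8.81 in KO replicates 1 to 3, against 8.59, 8.32 and 8.80 in WT replicates 1 to 3, overlapping throughout (-0.02, 95% confidence interval -0.44 to 0.39). Mafg, a small Maf partner of both, differed by -0.22 with overlapping arrays.

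Binding letters of the antioxidant response element were searched in RefSeq promoters (GRCm38.p6), which run from 250 bases before to 50 bases after a gene's start. The motif was TGACNNNGC on either strand, which can overlap the related sites of AP-1 and other Maf partners. Of the 42 genes 37 had a promoter entry and 9 of these held the motif (24.3%), against 14% of all 27025 genes and 12.4% of all 32851 promoters. A match is a run of letters only and does not show a bound site. The 9 matches are shown because they mark the genes with the Nrf2-type letters next to their start, read 5′ to 3′ along the strand that carries TGAC, with the fixed bases in capitals and the free bases in lower case.
Srxn1: TGACctaGC
Mafg: TGACcgtGC
Hagh: TGACgcgGC
Sod1: TGACcacGC
Ucp2: TGACgagGC
Prdx1: TGACtcaGC
Nfe2l2: TGACtccGC
Gclm: TGACggtGC
Txnrd1: TGACaaaGC

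The differences of the 9 genes with the motif lay on both sides of 0. Their median difference was 0.01 with 3 negative, against -0.10 with 17 negative over the 25 other tested genes that had a promoter entry. Hmox1, Gclc, Gsr, Prdx6 and Msra had no promoter entry and are in neither group. Motifs outside the 300 bases were not searched, so the split does not divide Nrf2 targets from other genes. The 3 negative with the motif were Srxn1 (-0.76), Mafg (-0.22) and Sod1 (-0.14). The promoters of the 4 with the smallest p are given whole, because they place the motif relative to the start of genes wholly lower in KO (Srxn1, Sod1), of a gene that was lower with overlapping arrays (Mafg) and of a gene that was higher with overlapping arrays (Hagh). Each is written 5′ to 3′ along the gene's strand, and the capitals mark the motif, as GCNNNGTCA where it lies on the opposite strand. The motif begins 28 bases after the start in Srxn1, 222 bases before it in Mafg, 20 bases after it in Hagh and 56 bases before it in Sod1. For Hagh, as for Txnrd1, the match lies in the promoter entry numbered 2, that of another start, and entry 1 holds no match.
Srxn1 (chr2:152105274-152105573, plus strand): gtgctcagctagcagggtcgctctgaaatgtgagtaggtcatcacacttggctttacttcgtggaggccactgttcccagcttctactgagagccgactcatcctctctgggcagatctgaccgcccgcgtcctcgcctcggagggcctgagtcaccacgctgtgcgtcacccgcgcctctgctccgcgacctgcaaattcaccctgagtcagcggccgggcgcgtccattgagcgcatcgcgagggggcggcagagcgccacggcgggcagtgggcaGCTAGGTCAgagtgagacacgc
Mafg (chr11:120633498-120633797, minus strand): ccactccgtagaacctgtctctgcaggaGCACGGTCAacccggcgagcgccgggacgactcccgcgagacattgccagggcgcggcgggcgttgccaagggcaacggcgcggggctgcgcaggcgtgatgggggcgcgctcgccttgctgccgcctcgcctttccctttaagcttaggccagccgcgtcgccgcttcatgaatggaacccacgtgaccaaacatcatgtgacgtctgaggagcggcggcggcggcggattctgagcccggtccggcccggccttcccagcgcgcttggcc
Hagh (chr17:24850417-24850716, plus strand): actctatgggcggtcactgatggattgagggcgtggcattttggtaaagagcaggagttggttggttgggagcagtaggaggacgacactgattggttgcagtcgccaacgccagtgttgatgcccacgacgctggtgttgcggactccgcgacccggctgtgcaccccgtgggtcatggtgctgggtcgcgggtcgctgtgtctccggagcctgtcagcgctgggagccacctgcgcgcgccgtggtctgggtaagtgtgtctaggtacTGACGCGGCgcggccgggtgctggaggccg
Sod1 (chr16:90220512-90220811, plus strand): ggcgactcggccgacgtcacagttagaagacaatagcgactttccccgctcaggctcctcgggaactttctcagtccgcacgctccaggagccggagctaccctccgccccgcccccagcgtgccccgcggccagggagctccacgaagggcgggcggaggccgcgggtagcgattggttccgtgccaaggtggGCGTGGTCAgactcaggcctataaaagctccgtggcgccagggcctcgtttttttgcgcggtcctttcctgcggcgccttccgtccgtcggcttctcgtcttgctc

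Of the classic Nrf2 target enzymes, Hmox1, which opens the haem ring, was at 7.22, 6.66 and 6.55 in KO replicates 1 to 3, against 6.96, 7.29 and 6.86 in WT replicates 1 to 3. KO replicate 1 was the second highest of the 6 arrays and the other KO arrays the lowest. Its difference was -0.23, limma adjusted p = 0.721. It became -0.43 when KO replicate 1 was left out and -0.10 when either WT replicate 2 or KO replicate 3 was. Nqo1, the quinone reductase, lay under the filter at 5.82, 5.41 and 5.89 in KO replicates 1 to 3, against 5.53, 6.004 and 5.98 in WT replicates 1 to 3, and the arrays overlapped. Hmox1 and the iron genes are also high in macrophages, whose 12 markers were lower in KO in all 12 cases, against 59.7% of all tested genes. Of these markers 7 were above the filter and 1 passed the threshold (Vcam1), as did 0.274% of all tested genes. The summed intensity of these markers ranged from 635 to 783 in KO arrays and from 815 to 1248 in WT arrays. Adgre1, Mertk, Cd14, Lyz2 and Spic were under the filter, and the part of such cells in the result was not tested. Plasma cell markers were lower in 5 of 6 cases, B cell markers in 7 of 9, dendritic cell markers in 5 of 6 and erythroid markers in 4 of 4. Conventional or CD8 T markers were lower in 2 of 4, NK cell markers in 2 of 4 and neutrophil markers in 4 of 9. In each of these lists 0 passed the threshold.

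Glutathione supply showed no difference beyond the spread between mice. Slc7a11, the cystine importer, lay under the filter at 4.67, 4.57 and 4.67 in KO replicates 1 to 3, against 4.62, 4.30 and 4.45 in WT replicates 1 to 3. Gclc, the catalytic subunit of the rate-limiting ligase, was at 9.19, 9.46 and 9.40 in KO replicates 1 to 3, against 9.41, 9.38 and 9.46 in WT replicates 1 to 3. Its difference was -0.07 (95% confidence interval -0.37 to 0.24), and it changed sign with centring (0.04) and quantile normalization (0.02). Gclm, the modifier subunit, was at 8.98, 8.61 and 8.41 in KO replicates 1 to 3, against 8.71, 8.61 and 8.65 in WT replicates 1 to 3. KO replicate 1 was its highest array and KO replicate 3 its lowest, so the KO arrays spanned the WT arrays (0.0057, 95% confidence interval -0.37 to 0.38). Gss, the second enzyme of synthesis, differed by -0.20 and Gsr, which reduces oxidised glutathione, by -0.05, both with overlapping arrays.

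The glutathione peroxidases differed from each other in size. Gpx4, the selenoenzyme that reduces lipid peroxides in membranes, was at 7.81, 8.36 and 8.16 in KO replicates 1 to 3, against 8.75, 8.82 and 8.46 in WT replicates 1 to 3. Every KO array lay below every WT array, the closest being KO replicate 2 and WT replicate 3. The group values were 8.11 ± 0.28 log2 units in KO and 8.68 ± 0.19 in WT (SD, n = 3 each), a difference of -0.56, SE 0.18, limma adjusted p = 0.296, or -0.51 relative to the median of all genes. Of its 10 probe sets 9 were lower in KO, 3 of them without overlap, and the brightest differed by -0.38. Gpx1, the abundant cytosolic peroxidase, was at 9.96, 9.86 and 9.75 in KO replicates 1 to 3, against 9.90, 9.97 and 9.88 in WT replicates 1 to 3. The arrays overlapped and the difference was -0.06 (95% confidence interval -0.35 to 0.24), or 0.04 with median centring. All 4 Gpx1 probe sets were lower in KO by 0.06 to 0.12 in size, none without overlap.

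The transferases that attach glutathione to other molecules lay close to 0. Gstp1 was at 10.76, 10.64 and 10.59 in KO replicates 1 to 3, against 10.87, 10.77 and 10.81 in WT replicates 1 to 3 (-0.15, limma adjusted p = 0.721). KO replicate 1 and WT replicate 2 nearly coincided, and with centring the difference was -0.04. Only 2 of its probe sets carry its name alone, and 5 more are shared with its near-identical copy Gstp2, so the signal of Gstp1 is uncertain. Gsto1 differed by 0.15 and Mgst2 by -0.09, with overlapping arrays. Mgst3 lay under the filter, with a difference of -0.11.

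Superoxide and hydrogen peroxide enzymes also differed little. Sod1, the copper-zinc dismutase, was at 11.19, 11.23 and 11.21 in KO replicates 1 to 3, against 11.29, 11.42 and 11.33 in WT replicates 1 to 3. Every KO array lay below every WT array, with an SD of 0.02 in KO and 0.07 in WT, but the difference was only -0.14 (95% confidence interval -0.42 to 0.15) and -0.03 with centring. Sod2, the mitochondrial dismutase, was at 9.46, 9.80 and 9.72 in KO replicates 1 to 3, against 9.67, 9.87 and 9.97 in WT replicates 1 to 3, overlapping (-0.18, and -0.08 without KO replicate 1). Catalase, encoded by Cat, was at 10.46, 10.51 and 10.61 in KO replicates 1 to 3, against 10.34, 10.60 and 10.58 in WT replicates 1 to 3. Its difference of 0.02 (95% confidence interval -0.29 to 0.33) changed sign when KO replicate 3 or WT replicate 1 was left out.

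Peroxiredoxins reduce hydrogen peroxide with a cysteine, and in some of them, not all, sulfiredoxin can rescue that cysteine once it is over-oxidised. Srxn1, the rescue enzyme, was at 7.14, 7.46 and 6.78 in KO replicates 1 to 3, against 7.84, 8.14 and 7.68 in WT replicates 1 to 3. The highest KO array, replicate 2, lay below the lowest WT array, replicate 3. The group values were 7.13 ± 0.34 log2 units in KO and 7.89 ± 0.23 in WT (SD, n = 3 each), with a difference of -0.76, SE 0.20, limma adjusted p = 0.215, or -0.71 relative to the median of all genes. Srxn1 had 5 probe sets of modest brightness, and 3 of them gave -0.42, -0.78 and -0.84 while the brightest gave 0.09. With the mean of the probe sets in place of their median, the difference was -0.40.

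Prdx2, the cytosolic peroxiredoxin abundant in blood cells, was at 7.89, 8.66 and 8.31 in KO replicates 1 to 3, against 8.84, 8.93 and 8.82 in WT replicates 1 to 3. KO replicate 1 was far below the other KO arrays, and the WT arrays spanned 0.12. The difference was -0.58, SE 0.19, limma adjusted p = 0.318 (-0.52 relative to the median of all genes), and -0.38 without KO replicate 1. Of its 12 probe sets 11 were lower in KO and 6 of these did not overlap, with single differences between -1.74 and 0.28. Erythroid markers bear on Prdx2, and the 4 found on the array were all under the filter, with summed intensities of 84.1 to 119 in KO arrays and 112 to 132 in WT arrays.

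Prdx5, which works in mitochondria, peroxisomes and cytosol, was at 8.91, 9.25 and 8.98 in KO replicates 1 to 3, against 9.36, 9.39 and 9.29 in WT replicates 1 to 3 (-0.30, limma adjusted p = 0.501). The KO arrays lay lower without overlap, KO replicate 2 being close to WT replicate 3, and the difference was -0.08 when only bright probe sets were used. Prdx3, the mitochondrial peroxiredoxin, differed by -0.29 with overlap, although its KO replicates 2 and 3 lay below all WT arrays. Prdx4 of the endoplasmic reticulum differed by 0.14 and Prdx6, which reduces phospholipid peroxides, by 0.09, both with overlap. Single arrays moved both, since Prdx4 was 0.34 without KO replicate 1 but only 0.0094 when KO replicate 3 was left out, and Prdx6 was 0.25 without WT replicate 3 and -0.014 without WT replicate 1. Prdx1 was at 6.34, 6.69 and 6.60 in KO replicates 1 to 3, against 6.21, 6.66 and 6.42 in WT replicates 1 to 3, a difference of 0.11 that came from dim probe sets. Its brightest pair of probe sets, at mean intensities of 1175 and 457, gave -0.86 and -0.32 without overlap, and the gene differed by -0.07 when only bright probe sets were used. The direction of Prdx1 therefore depends on the probe sets taken.

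**Figure D3:**
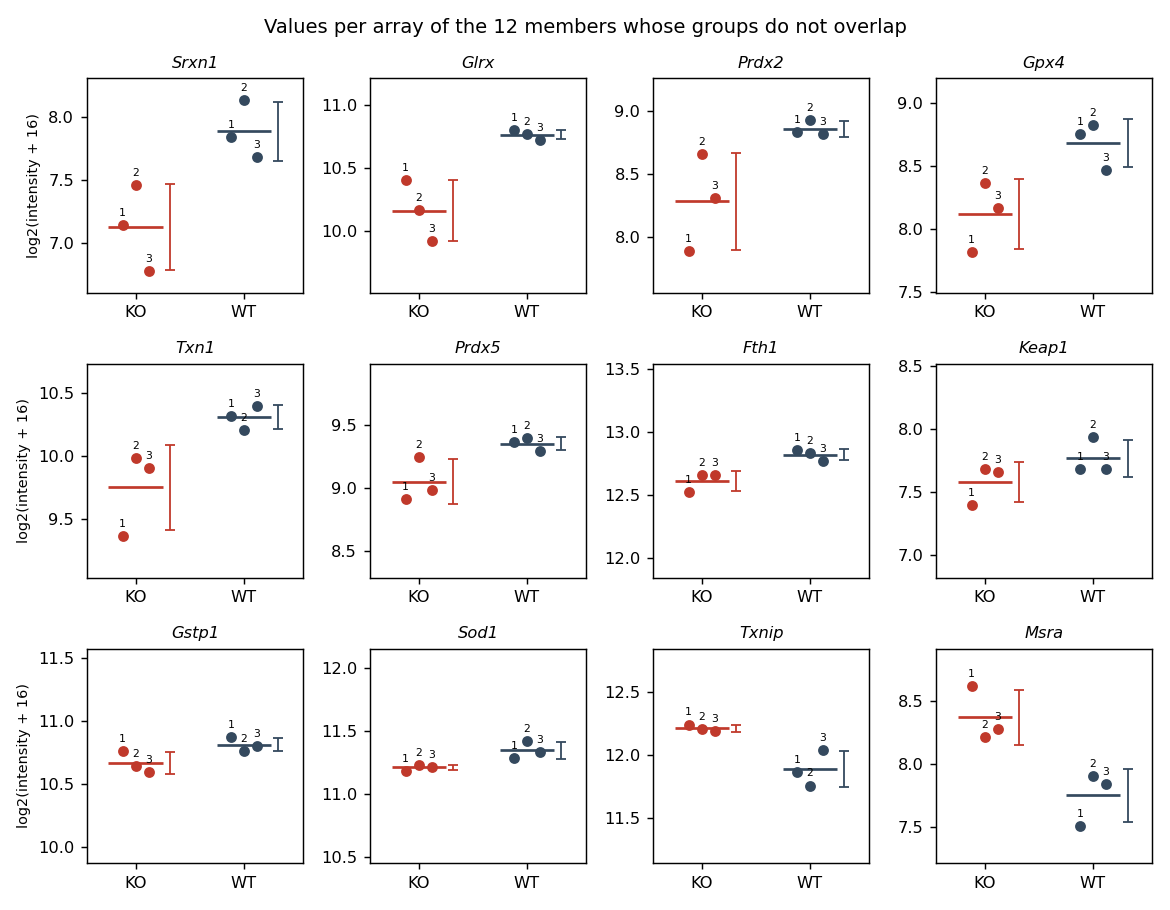
Values of the 12 genes whose groups do not overlap, in log2(intensity + 16) units, with KO on the left and WT on the right of each panel, small digits for the replicate, lines for means and bars for 1 SD (n = 3 each). All panels span the same range of log2 units. Srxn1 shows the lowest difference (-0.76) and Msra the highest (0.62), and in Keap1, Gstp1, Prdx5 and Sod1 the groups nearly touch.

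The thioredoxin system held members on both sides. Txn1, cytosolic thioredoxin, was at 9.37, 9.99 and 9.91 in KO replicates 1 to 3, against 10.32, 10.21 and 10.40 in WT replicates 1 to 3. The KO arrays lay below the WT arrays, with KO replicate 1 lowest (-0.56, SE 0.18, limma adjusted p = 0.304, -0.50 relative to the median of all genes). This difference is that of 1 of its 5 probe sets, the one with the lowest difference, and the highest gave 0.16. The size for Txn1 depends on the summary, since it was -0.17 with the mean of probe sets and -0.36 without KO replicate 1. Its 2 brightest probe sets, at mean intensities of 7739 and 6246, gave -0.07 and -0.31.

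Txnip, which binds and blocks reduced thioredoxin and limits glucose uptake, was at 12.24, 12.20 and 12.19 in KO replicates 1 to 3, against 11.86, 11.76 and 12.04 in WT replicates 1 to 3. The KO arrays spanned 0.05 and lay above all WT arrays. The difference was 0.32, SE 0.14, limma adjusted p = 0.440 (0.38 relative to the median of all genes). All 12 Txnip probe sets were higher in KO, by 0.10 to 0.48, and 8 did not overlap. Leaving out any 1 array gave 0.26 to 0.40.

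Txnrd1, the selenoenzyme that reduces cytosolic thioredoxin, was at 8.06, 8.36 and 8.10 in KO replicates 1 to 3, against 7.98, 8.15 and 8.39 in WT replicates 1 to 3. The difference of 0.00087 (95% confidence interval -0.35 to 0.36) hid probe sets on both sides, 12 of 18 lower, with a range of -0.81 to 0.57. The mitochondrial pair Txn2 (0.04) and Txnrd2 (-0.04) had overlapping arrays.

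Among glutaredoxins, which use glutathione to release proteins from mixed disulfides, Glrx stood at 10.40, 10.16 and 9.92 in KO replicates 1 to 3, against 10.80, 10.77 and 10.72 in WT replicates 1 to 3. All KO arrays were lower, KO replicate 3 the most, and the WT arrays spanned 0.08. The group values were 10.16 ± 0.24 log2 units in KO and 10.76 ± 0.04 in WT (SD, n = 3 each), with a difference of -0.60, SE 0.15, limma adjusted p = 0.209, or -0.55 relative to the median of all genes. All 4 Glrx probe sets were lower in KO without overlap, by -0.43 to -0.67, 3 of them with mean intensities of 1279 to 2120. The difference lay between -0.72 and -0.48 when single arrays were left out and was -0.55 with the mean of probe sets. The other glutaredoxins had overlapping arrays. They were the mitochondrial Glrx2 (-0.19, -0.015 without KO replicate 1 and 0.00043 without WT replicate 2), the cytosolic iron-sulfur factor Glrx3 (-0.10, 0.22 without KO replicate 1) and its mitochondrial counterpart Glrx5 (0.01).

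Msra, the methionine sulfoxide reductase, was at 8.62, 8.21 and 8.28 in KO replicates 1 to 3, against 7.51, 7.90 and 7.84 in WT replicates 1 to 3. Every KO array was above every WT array, with KO replicate 1 highest and WT replicate 1 lowest. The group values were 8.37 ± 0.22 log2 units in KO and 7.75 ± 0.21 in WT (SD, n = 3 each), with a difference of 0.62, SE 0.17, limma adjusted p = 0.235, or 0.67 relative to the median of all genes. Of 13 probe sets 11 were higher in KO, but only 2 of these did not overlap (0.96 and 0.66), and a dim probe set was lower without overlap (-0.44). The brightest probe set gave 0.36, and the gene differed by 0.24 with the mean of probe sets and 0.39 with bright ones only.

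**Figure D4:**
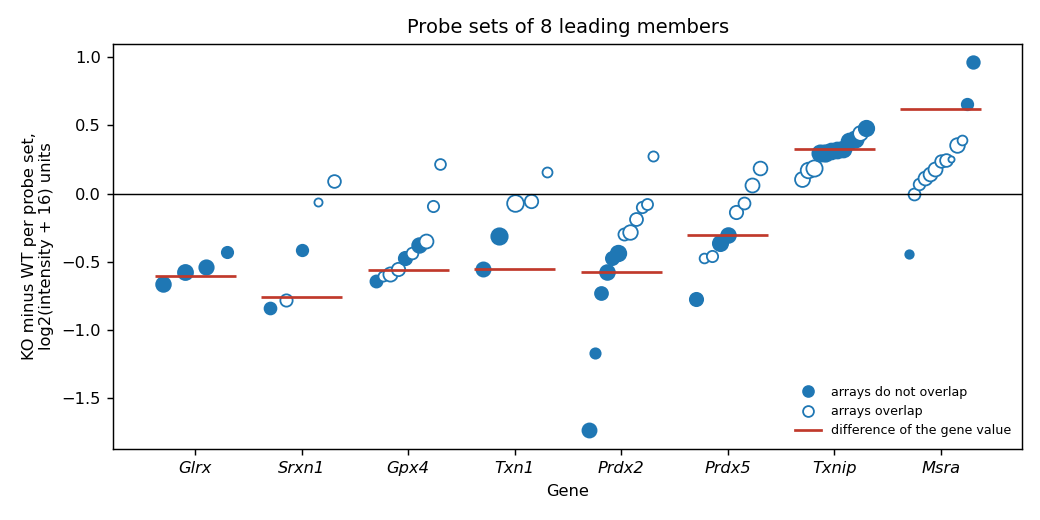
KO minus WT difference of every probe set of 8 leading genes, in log2(intensity + 16) units on the vertical axis, sorted within each gene, with point size growing with the mean intensity. Filled points are probe sets whose KO and WT arrays do not overlap, and red lines are the differences of the gene values. All 4 Glrx probe sets lie below 0 and all 12 Txnip probe sets above it, while those of Srxn1, Txn1 and Msra spread.

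The single probe sets were also tested over the whole table. None of the 411 passed an adjusted p of 0.05 in limma (lowest 0.510), where 0.00111% of all probe sets passed, and 28 had an unadjusted p under 0.05. Of these 20 were lower and 8 higher in KO (4.87% and 1.95%, against 4.37% and 3.23% of all probe sets). Every KO array lay below every WT array in 54 of them (13.1%, against 7.64% of all probe sets) and above in 24 (5.84%, against 6.17%). Probe sets of 1 gene share its RNA and are not independent.

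Iron storage and uncoupling genes differed little. Fth1, the ferritin heavy chain, was at 12.52, 12.66 and 12.65 in KO replicates 1 to 3, against 12.86, 12.83 and 12.77 in WT replicates 1 to 3, lower in KO without overlap (-0.21, limma adjusted p = 0.613), and -0.10 with centring, where the arrays overlapped. Ftl1, the light chain, differed by 0.09 with overlap (0.24 without KO replicate 1), and 6 further probe sets that it shares with Ftl2 were not used. Ucp2, the mitochondrial uncoupling protein, was at 10.96, 11.01 and 11.20 in KO replicates 1 to 3, against 10.87, 11.03 and 10.92 in WT replicates 1 to 3, with overlap (0.12, 95% confidence interval -0.19 to 0.42). With either centring or quantile normalization its KO arrays lay above its WT arrays, and with the mean of probe sets it differed by -0.03.

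The glyoxalases turn methylglyoxal into lactate through a glutathione adduct. Glo1, the first enzyme, was at 7.84, 7.86 and 7.58 in KO replicates 1 to 3, against 7.83, 7.48 and 7.85 in WT replicates 1 to 3. The arrays overlapped and the difference was 0.04 (95% confidence interval -0.32 to 0.39), with a change of sign under the mean of probe sets (-0.11). Hagh, the second enzyme, was at 7.37, 7.89 and 7.39 in KO replicates 1 to 3, against 7.53, 7.35 and 6.85 in WT replicates 1 to 3. KO replicate 2 was high and WT replicate 3 low, and the groups overlapped (0.31, limma adjusted p = 0.646). Without WT replicate 3 the difference was 0.11, without KO replicate 2 it was 0.14, and with the mean of probe sets it was -0.04.

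By location, the 7 genes of mitochondrial proteins (Sod2, Prdx3, Txn2, Txnrd2, Glrx2, Glrx5 and Ucp2) had a median difference of -0.04 with 4 negative. Prdx5, which works there and elsewhere and was wholly lower in KO (-0.30), was not counted among them. The 4 selenoproteins (Gpx1, Gpx4, Txnrd1 and Txnrd2) had a median of -0.05, and Gpx4 was the 1 without overlap. Both medians became positive with centring (0.07 and 0.05), as did that of all tested genes (0.05). None of the 42 genes lay within 10 Mb of Park7.

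A wider list of 91 antioxidant, thiol and oxidant-source genes gave 87 on the array and 75 tested. Of these 0 passed limma at 0.05 over all genes, 11 had an unadjusted p under 0.05 (7 lower, 4 higher, or 9.33% and 5.33%, against 7.67% and 2.99% of all tested genes). In 19 the arrays did not overlap (14 lower, 5 higher, or 18.7% and 6.67%, against 11.3% and 6.10%). The median was -0.14 with 55 negative (73.3%, against -0.05 and 59.7% of all tested genes), and it was -0.04 with centring. Cybb, the catalytic subunit of the phagocyte NADPH oxidase, was at 8.82, 9.34 and 9.14 in KO replicates 1 to 3, against 9.97, 10.09 and 10.24 in WT replicates 1 to 3. All KO arrays were lower (-0.9998, SE 0.17, limma adjusted p = 0.0519), and all 14 of its probe sets had lower values in KO. Cybb is also a macrophage gene. The macrophage marker sums above were lower in KO arrays too, and the part of such cells in its difference was not tested. Cybb passed in 9 of the 20 alternatives, among them centring, quantile normalization and array weights.

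Gstm4, a glutathione transferase of the mu class, was at 7.50, 7.32 and 7.29 in KO replicates 1 to 3, against 8.10, 8.31 and 8.11 in WT replicates 1 to 3. The groups were apart (-0.80, SE 0.14, limma adjusted p = 0.0554), and Gstm4 passed with array weights, a filter at the 60th percentile, an adjusted p of 0.10 and without KO replicate 1. Its family members are close in sequence, so part of its signal may be shared. The next by p were the protein disulfide isomerase Pdia6 (-0.42, limma adjusted p = 0.281) and the theta class transferases Gstt2 (0.59, limma adjusted p = 0.329) and Gstt1 (-0.41, limma adjusted p = 0.365), none overlapping between groups.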

How the data were processed

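The authors deposited linear intensities for 269751 probe sets on 6 arrays. Per the labels, these were made by exon-level analysis in Affymetrix Expression Console 1.4 and summarised with PLIER; background correction, normalization and genome build are not given in the sources used here. Groups and replicate numbers came from the titles, and each sample is a separate mouse. Probe sets were named from the platform annotation, in which 233753 had 1 symbol, 5106 several (not used) and 30892 none. Intensities were transformed as log2(intensity + 16) and reduced to the median per gene. A filter at the 40th percentile of gene means (5.90) removed 9261 genes and kept 13891. The groups were tested in limma 3.58.1 under R 4.3.3 (lmFit, eBayes, two-sided, Benjamini-Hochberg over all tested genes, threshold 0.05), and the test was checked on simulated data. The number of arrays limits the precision. RefSeq tables (GRCm38.p6) gave current names, neighbourhood of Park7 and promoters.

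Per-array values were given for tested genes whose groups do not overlap (up to 14 with the smallest p), for 22 genes named whatever their values, and for Cybb and Gstm4, the first of the 5 wider genes with the smallest p. The members and lists were chosen with earlier results of these data known. Alternatives are described in the closing section; those on overlap were added after seeing the data.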

Additional observations from a re-analysis of the deposited data

How the results depend on the processing

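Leaving out single arrays, 2 other pseudocounts, 2 other filters, bright probe sets, the mean of probe sets, quantile normalization, median centring, trended, robust and unmoderated variance, array weights, an adjusted p of 0.10 and the replicate block made 20 alternatives. In 1 of them, array weights, a gene of the set passed (1 gene, Glrx, -0.72), and of the single probe sets 0 passed in any of the 12 alternatives run on them. The median of the 39 genes was -0.06, and turned to 0.018 with quantile normalization and 0.044 with median centring. That of all tested genes moved likewise, from -0.05 to 0.013 and 0.051. The wholly lower genes numbered 10 and the wholly higher 2. They became 6 and 4 with centring, 8 and 4 with quantile normalization and 14 and 4 without KO replicate 1, while the shares of all tested genes moved from 11.3% and 6.10% to 6.86% and 11.4%, 8.49% and 9.61%, and 15.3% and 13.7%; these are alternatives chosen after seeing the data. Over all tested genes 38 passed. This count was 60 with the mean of probe sets, 125 with array weights, 0 unmoderated (where Park7, at -3.57, had an adjusted p of 0.0905), 74 at an adjusted p of 0.10 and 4 to 37 without single arrays. For the wider list the count of 0 became 1 with a pseudocount of 64, the mean of probe sets, quantile normalization, centring or a trend, 2 with the 60th percentile filter, array weights or an adjusted p of 0.10, and 0 to 1 without single arrays. Of the 25 genes followed through these alternatives, 15 kept their sign throughout. The other filters, the variance settings, the adjusted p of 0.10 and the replicate block leave a difference unchanged, so they cannot turn a sign. Nor can leaving out 1 array turn the sign of a gene without overlap. With the mean of probe sets the sign turned in Gclc (0.0079), Prdx1 (-0.075), Txnrd1 (-0.042), Ucp2 (-0.034), Glo1 (-0.11) and Hagh (-0.043). Bright probe sets turned Bach1 (0.030) and Prdx1 (-0.073). Quantile normalization turned Bach1 (0.080) and Gclc (0.018), centring Bach1 (0.080), Gclc (0.036) and Gpx1 (0.044), and array weights Bach1 (0.16) and Gclm (-0.12). Without single arrays Bach1 ranged from -0.15 to 0.12, Gclc from -0.12 to 0.016, Gclm from -0.15 to 0.14, Cat from -0.065 to 0.066, Txnrd1 from -0.094 to 0.11 and Glo1 from -0.081 to 0.13. The causes were not tested. Same-numbered KO and WT arrays correlated by 0.15, 0.17 and 0.01 in their deviations, and differently numbered ones by -0.19 to 0.09. KO replicates 1 and 2 correlated best with the WT array of the same number, and KO replicate 3 with WT replicate 2 (0.09). So few arrays cannot show whether the numbers pair the mice. With the replicate block 67 of all tested genes passed, 1 of the wider list (Cybb) and 0 of the 39 (lowest adjusted p 0.0760, Srxn1).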
